A study of Mus musculus with 6 samples.

Results

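The homeostatic lymphoid chemokines and their receptors were followed here through every array probe of 8 genes. These were the ligands Cxcl13, Ccl19, Ccl21a, Ccl21b and Cxcl12 and the receptors Cxcr5, Ccr7 and Cxcr4. The members were chosen by gene symbol, through the accession that names each probe, and 12 of the 41006 probes on the array belonged to them. All 8 genes had at least 1 probe. The fit held 37295 gene names, of which 12236 were symbols and the rest accessions without a symbol. RNA came from mesenteric lymph nodes of naive adult mice and was hybridised to 6 two-colour Agilent oligonucleotide arrays, 3 per group. The first group carried the label TB-TNF KO double and is called TB_TNF_KO, read with the series title as lacking TNF from both T and B cells. The second carried the label B-TNF KO and is called B_TNF_KO, read as lacking TNF from B cells only. The B cell deletion was therefore shared by both groups, and no wild-type node was analysed here. The Cre lines or promoters that directed the deletions are not given in the sources used here. Each sample was the RNA of nodes pooled from 3 mice and labelled with Cy3. A pool of RNA from 11 mouse cell lines, labelled with Cy5, was the common reference on every array. By the labels TB_TNF_KO replicate 2 was female and the other 5 pools were male.

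Homeostatic chemokines are made without infection and place lymphocytes within the node. Cxcl13, made by follicular dendritic cells and other follicular stroma, draws cells bearing its receptor Cxcr5, mainly B cells and follicular helper T cells, into the follicle. Ccl19 and Ccl21, made by reticular cells of the T zone and, for Ccl21, also by high endothelial venules and lymphatic vessels, act on Ccr7 of T cells and migrating dendritic cells. Cxcl12, made by reticular and vascular cells, acts on Cxcr4. TNF and the lymphotoxins act on stromal cells upstream of these chemokines, and mice that lack TNF altogether have disturbed follicles.

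Cxcl13 lies at chr5:95956939-95961068 of the mouse build GRCm38.p6 and was measured by 2 probes of different sequence, each of 60 bases. The first 30 bases of each are shown because the result for Cxcl13 turns on both.
Cxcl13 probe A: tgtcttgcattaaaaccagtaacaattgaa
Cxcl13 probe B: gaatgctcaagctccgttgcatacccaacc
Ccl21 genes exist in several copies on chromosome 4 with nearly the same transcript sequence, and the overlapping stretches of 2 saturated probes are shown because these probes can hardly be told apart. Capitals mark the base that differs within the stretch.
Ccl21a probe A: tatgatttatacctaactgaataaaaaGgt
Ccl21b: tatgatttatacctaactgaataaaaaAgt
The pair overlapped over 48 bases with 2 differing, and shared an unbroken run of 43 bases. No other probe on the array shared a run of 25 bases with a member probe. The promoter window RefSeq gives for Ccl21a (GRCm38.p6) also had close copies, matching Ccl21d at 99.3% of 299 compared bases. The window of Ccl21b, compared without gaps, matched it at 32.4%, and the reason was not tested. How the signal divides among such copies was not tested.

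The Cxcl13 promoter is shown because Cxcl13 was the only member called lower. The window chr5:95956689-95956988 (plus strand, RefSeq table of GRCm38.p6) holds 250 bases before the annotated start and 50 after it. Capitals mark GGGAGATTT, the start of a site described in the mouse Cxcl13 promoter as bound by the NF-kB pair RelB and p52, and TATAAA, the core letters of a TATA box.
Cxcl13 promoter: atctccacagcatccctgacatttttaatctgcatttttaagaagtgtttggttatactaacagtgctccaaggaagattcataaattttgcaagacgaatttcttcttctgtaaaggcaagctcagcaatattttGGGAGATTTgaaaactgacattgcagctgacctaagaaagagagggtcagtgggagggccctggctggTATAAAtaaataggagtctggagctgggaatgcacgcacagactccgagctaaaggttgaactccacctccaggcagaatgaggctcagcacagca
GGGAGATTT began 114 bases before the start, and TATAAA began 46 bases before it. Both strands of 32851 windows of 300 bases were searched, and the motifs do not overlap each other. GGGAGATTT occurred in 104 windows (0.317%), and of the 6 members with a window it occurred in Cxcl13 alone. It was taken from the described Cxcl13 site, so its presence there was fixed in advance. A general consensus of NF-kB sites occurred in 2779 windows (8.46%) and in no member window, Cxcl13 included. TATAAA occurred in 4473 windows (13.6%), among members in Cxcl13 and in Cxcr4. A match describes letters in a window, and neither binding nor use of the site was measured.

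All 12 member probes were well above background in the sample channel on every array and passed the filter on dim probes. Array medians of the background-subtracted sample intensity were 144 to 166 in TB_TNF_KO and 159 to 203 in B_TNF_KO. Medians of the reference channel were 315 to 362 in TB_TNF_KO and 280 to 283 in B_TNF_KO, without overlap, although the same RNA was hybridised. The image-extraction days in the file headers held 1 group each, so day and group cannot be told apart. TB_TNF_KO arrays 1 and 2 stood closest of all pairs. Their sample-channel difference had an SD 1.10 times that of their reference-channel difference, against 1.23 to 1.79 times in the other 14 pairs. Their mean therefore entered the tests as 1 sample, giving n = 2 for TB_TNF_KO and n = 3 for B_TNF_KO. The Y-linked gene Eif2s3y had log2 ratios of -2.81, -2.84 and 1.49 on TB_TNF_KO arrays 1 to 3 and of 0.59, 0.88 and 1.83 on B_TNF_KO arrays. The library labelled TB_TNF_KO replicate 1, male, was thus as low as the female one. Genes of the exocrine pancreas also varied by array, with a median log2 ratio over 13 of 22 listed genes of 4.004, 4.09 and 0.021 in TB_TNF_KO and 2.90, 3.80 and 0.045 in B_TNF_KO. Tnf, the targeted gene, had log2 ratios of -0.66, -0.63 and -0.84 in TB_TNF_KO and of 0.19, 0.36 and 0.49 in B_TNF_KO at its brighter probe. At the second probe they were -0.16, -0.019 and -0.16 in TB_TNF_KO and 0.062, 0.17 and 0.18 in B_TNF_KO, a smaller gap without overlap. Whether either probe lies in the deleted stretch was not tested.

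Cxcl13 was lower in TB_TNF_KO than in B_TNF_KO at both probes. It was the only one of the 8 genes to pass the test, which could not judge Ccl21b, saturated at its only probe. The difference is given as log2 of sample over reference, from limma with Benjamini-Hochberg adjustment over 40791 probes. At probe A the background-subtracted sample intensity was 754, 662 and 871 on the TB_TNF_KO arrays and 4680.25, 3408 and 4427 on the B_TNF_KO arrays. At probe B it was 668, 590.5 and 688 in TB_TNF_KO and 2116, 1798 and 2355 in B_TNF_KO. Every TB_TNF_KO array was therefore dimmer than every B_TNF_KO array at both probes. The log2 ratio at probe A was 3.65, 3.38 and 3.40 in TB_TNF_KO and 5.15, 5.04 and 4.87 in B_TNF_KO. At probe B it was 1.12, 1.10 and 1.19 in TB_TNF_KO and 2.94, 2.82 and 2.64 in B_TNF_KO. The groups did not overlap on this scale either. In bulk RNA, fewer cells of a type and less RNA per cell cannot be told apart.

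**Figure D1:**
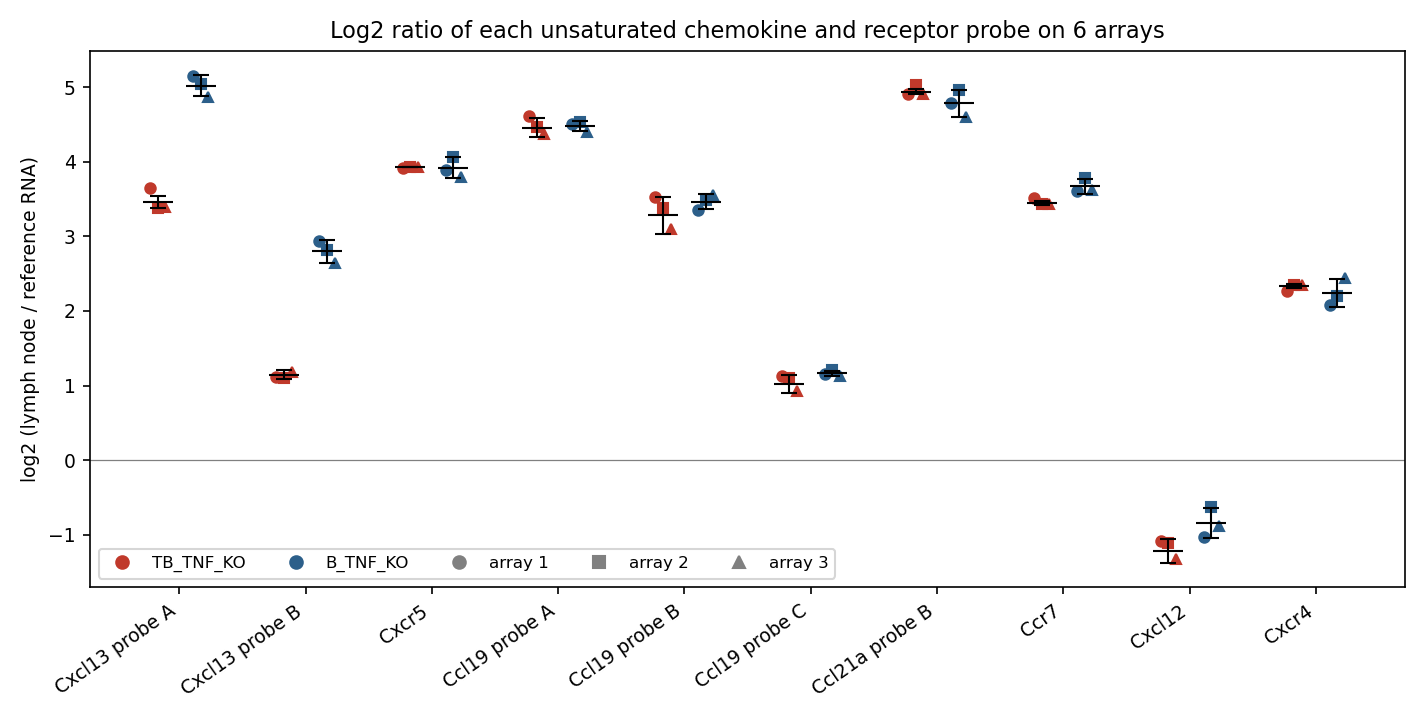
Log2 ratio of lymph node over reference RNA (y axis) on 6 arrays for the 10 member probes not saturated in the sample channel, with TB_TNF_KO (red) left of B_TNF_KO (blue) and marker shape for the array number. Bars are mean ± SD over the samples of the fit (n = 2 and n = 3), and both Cxcl13 probes lie well apart between groups, at 3.46 against 5.02 and at 1.15 against 2.80.

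At probe A the log2 ratio averaged 3.46 ± 0.083 (SD, n = 2) in TB_TNF_KO and 5.02 ± 0.14 (SD, n = 3) in B_TNF_KO. The difference was -1.56 (SE 0.089, 95% interval -1.78 to -1.34, limma adjusted p = 0.0219), a ratio 2.95-fold lower in TB_TNF_KO. At probe B the log2 ratio averaged 1.15 ± 0.06 (SD, n = 2) in TB_TNF_KO and 2.80 ± 0.15 (SD, n = 3) in B_TNF_KO. That difference was -1.65 (SE 0.091, 95% interval -1.87 to -1.43, limma adjusted p = 0.0219), or 3.14-fold lower. Of all probes tested, 0.00245% had a lower difference than probe B and 0.0049% a lower one than probe A. The probes thus gave nearly the same ratio difference while differing in both channels. These p-values rest on the spread between the samples within a group, and the label is the only evidence that the pools came from separate animals. They do not measure a shift between image-extraction days, because each day held 1 group. In the reference channel, the same RNA throughout, 4535 probes were lower and 4184 higher in TB_TNF_KO at an unadjusted limma p under 0.05. For the ratio these counts were 4550 and 2047. After adjustment 0 reference-channel probes were called. The Cxcl13 calls depended on the samples and the background step. The limma adjusted p over 21 alternatives for probe A lay between 0.00298 and 0.365, and the call held in 13 of them. It was lost without TB_TNF_KO replicate 2 (difference -1.50, adjusted p = 0.0536), without B_TNF_KO replicate 1 (-1.50, 0.0723) and without B_TNF_KO replicate 2 (-1.56, 0.0917), among others. Without TB_TNF_KO replicate 3 (-1.50, 0.168) that group was 1 sample, assumed to vary like B_TNF_KO. The differences themselves moved little in these settings.

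The reference channel differed between groups at the Cxcl13 probes, and in opposite directions. At probe A the reference intensity was 86.4, 107 and 104 on TB_TNF_KO arrays and 181, 154 and 181 on B_TNF_KO arrays. At probe B it was 715, 696 and 561 in TB_TNF_KO and 438, 464 and 536 in B_TNF_KO. The groups did not overlap at either probe. After normalisation between arrays the reference channel alone differed by -0.65 at probe A (limma adjusted p = 0.0937) and by 0.26 at probe B (adjusted p = 0.211) on the log2 scale. A larger absolute reference difference than that of probe A occurred at 0.206% of all probes, and 6.11% exceeded probe B. The sample channel alone gave differences of -2.21 (limma adjusted p = 0.00438) at probe A and -1.39 (adjusted p = 0.00553) at probe B. The 2 probes were therefore further apart in either channel than in the ratio. The part of the reference channel in the size of the change was not tested.

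**Figure D2:**
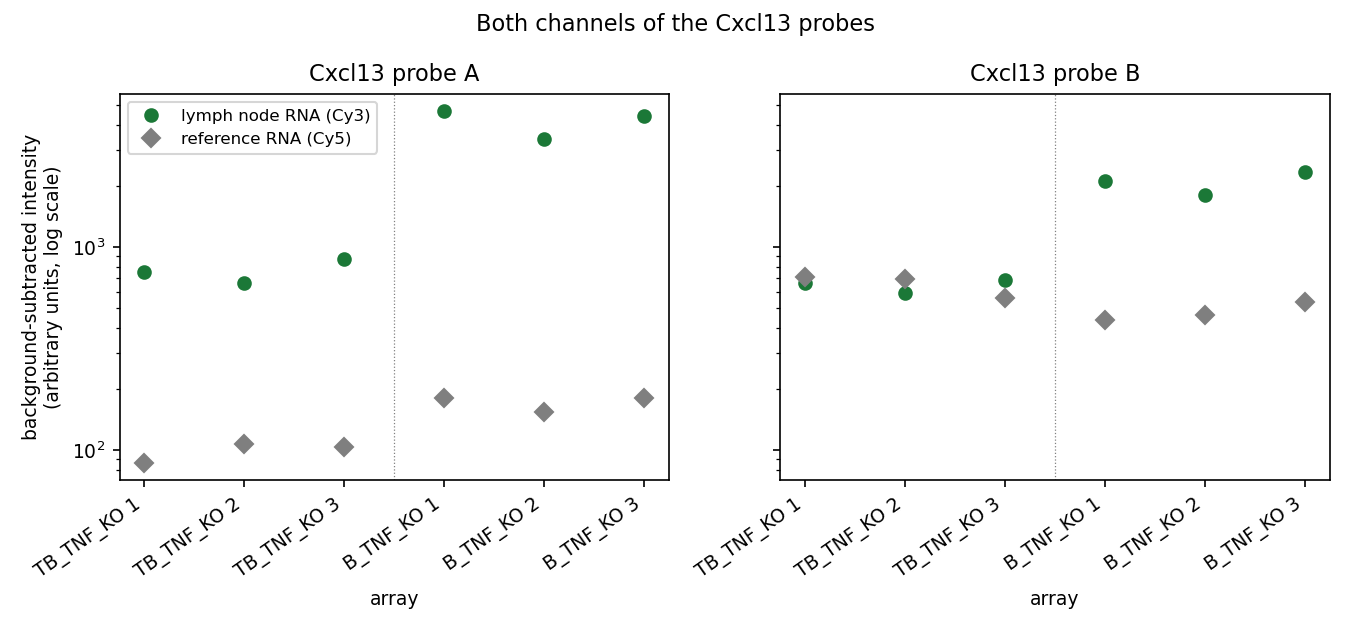
Background-subtracted intensity (log axis, arbitrary units) of the lymph node channel (green circles) and reference channel (grey diamonds) for the Cxcl13 probes, one column per array, TB_TNF_KO left of B_TNF_KO. The lymph node channel stayed at 871 or lower on TB_TNF_KO arrays and at 1798 or higher on B_TNF_KO arrays, and the reference channel moved in opposite directions at the 2 probes.

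By replicate set, Cxcl13 was lower in TB_TNF_KO each time. Replicate 3, whose pools had low pancreas signal in both groups, gave a log2 ratio difference of -1.47 at probe A and -1.45 at probe B (TB_TNF_KO minus B_TNF_KO, 1 array each). The mean of arrays 1 and 2 of each group gave -1.58 and -1.77. The part of pancreas RNA in the result was not tested.

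Cxcr5 at chr9:44511787-44526444, the receptor for Cxcl13, did not pass the test. It had log2 ratios of 3.92, 3.93 and 3.93 on TB_TNF_KO arrays and of 3.90, 4.07 and 3.80 on B_TNF_KO arrays, so the TB_TNF_KO values lay inside the B_TNF_KO range. Its sample intensity was 2462, 2232 and 3627 in TB_TNF_KO and 3489, 3469 and 4482 in B_TNF_KO. The log2 difference was 0.0095 (SE 0.083, 95% interval -0.19 to 0.21, limma adjusted p = 0.973). The interval leaves out the size of change seen for its ligand. The sign of this small value was not stable, being -0.095 with the sample channel alone and -0.055 with median centring in place of loess.

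Ccl19, a Ccr7 ligand at chr4:42754525-42756365, was measured by 3 probes, none of which passed the test. At probe A the log2 ratio was 4.62, 4.47 and 4.37 in TB_TNF_KO and 4.51, 4.53 and 4.40 in B_TNF_KO, overlapping. Its difference was -0.024 (95% interval -0.20 to 0.15, limma adjusted p = 0.908), and this sign turned when the 6 arrays were counted separately (0.00489). Probe B had log2 ratios of 3.53, 3.38 and 3.10 in TB_TNF_KO and 3.35, 3.49 and 3.55 in B_TNF_KO. Replicate 3 pools stood furthest apart there. The difference was -0.18 (95% interval -0.47 to 0.10, limma adjusted p = 0.516), with -0.45 between the replicate 3 arrays and 0.038 between the means of arrays 1 and 2. Without replicate 3 of both groups the sign was therefore positive. Probe C had log2 ratios of 1.12, 1.09 and 0.93 in TB_TNF_KO and 1.16, 1.20 and 1.13 in B_TNF_KO. Here all TB_TNF_KO arrays lay below all B_TNF_KO arrays, although the difference of -0.14 (95% interval -0.30 to 0.014) had a limma adjusted p of 0.351.

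Probe C was unlike the others in position. Its sequence matched the promoter window of Ccl19 before the annotated gene start, at chr4:42756416-42756475 on the minus strand (GRCm38.p6), with 50 bases between its end and the gene start. It is shown because it lies outside the annotated gene.
Ccl19 probe C: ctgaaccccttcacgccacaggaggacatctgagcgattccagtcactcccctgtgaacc
Its sample intensity was 449, 436 and 425 in TB_TNF_KO and 532, 510.4 and 658 in B_TNF_KO. Its reference intensity was of similar size, at 451, 496 and 402 in TB_TNF_KO and 374, 391 and 417 in B_TNF_KO. This probe upstream of the annotated start thus gave signal in both channels, and how specific that signal was to Ccl19 was not tested. The files do not show which transcript gave it.

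Ccl21a lies at chr4:42772860-42773991, and 2 of the 3 Ccl21 probes reached the top of the scanner range. Ccl21a probe A read 65149, 65148 and 65147 in TB_TNF_KO and 65152, 65156 and 65155 in B_TNF_KO. Ccl21b read 65151, 65150.0 and 65148 in TB_TNF_KO and 65155, 65156 and 65157 in B_TNF_KO. Both were saturated in the sample channel on all 6 arrays, so no fold is given, and only 27 probes of the array (0.0658%) were saturated on every array. Ccl21a probe B was saturated on no array. It read 28047, 25872 and 28397 in TB_TNF_KO and 31628, 31433 and 39608 in B_TNF_KO, lower throughout in TB_TNF_KO before scaling. Its log2 ratio was 4.91, 5.03 and 4.91 in TB_TNF_KO and 4.78, 4.96 and 4.60 in B_TNF_KO, overlapping. The difference of 0.16 (SE 0.10, 95% interval -0.096 to 0.41) did not pass the test (limma adjusted p = 0.536). The order of the groups thus depended on the scale, and with median centring the difference was -0.016. At the saturated probes a change could not have been seen.

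**Figure D3:**
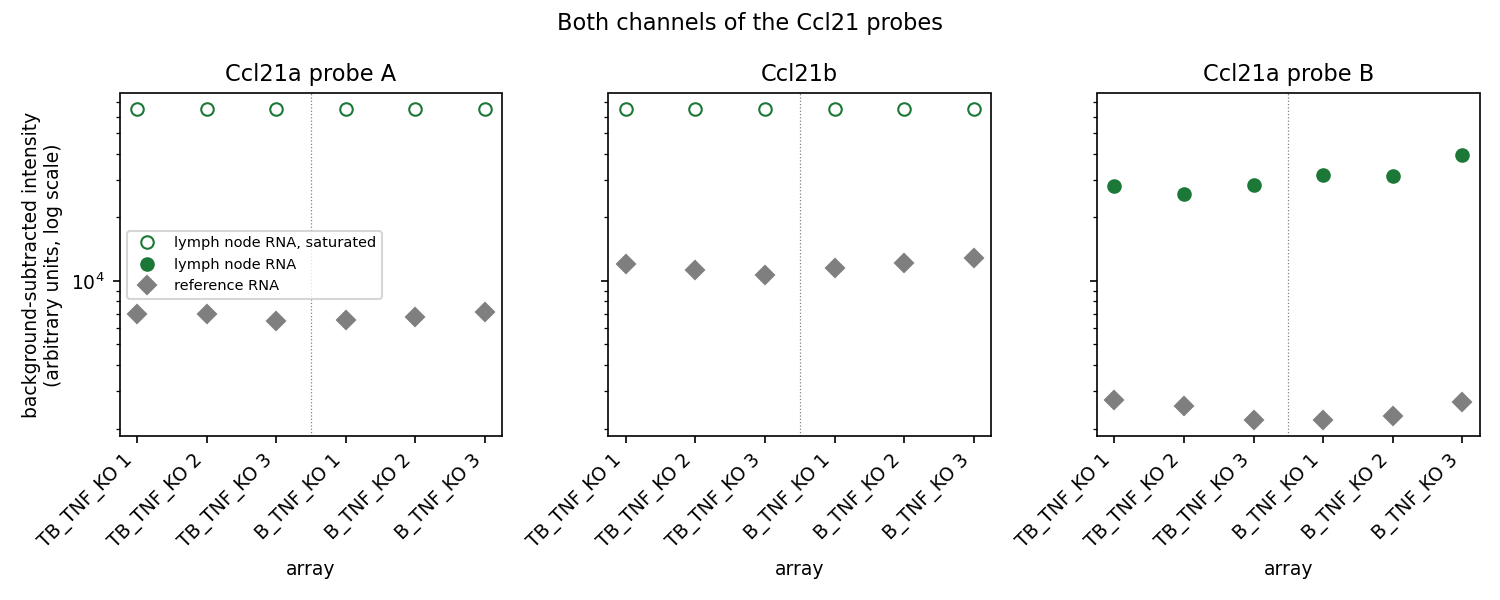
Background-subtracted intensity (log axis, arbitrary units) of both channels at the Ccl21 probes, one column per array, TB_TNF_KO left of B_TNF_KO, with saturated lymph node values as open circles. Ccl21a probe A and Ccl21b sat at the scanner limit on all 6 arrays, and only Ccl21a probe B (25872 to 39608) was below it.

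Ccr7 at chr11:99144199-99155077, the receptor for Ccl19 and Ccl21, was lower in ratio without passing the test. Its log2 ratio was 3.51, 3.43 and 3.43 in TB_TNF_KO and 3.61, 3.78 and 3.62 in B_TNF_KO, without overlap. The difference was -0.22 (SE 0.066, 95% interval -0.38 to -0.057, limma adjusted p = 0.187). The sample channel alone gave 0.020 and the reference channel alone 0.24, so the ratio difference went with the reference channel. The part of that channel in the result was not tested.

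Cxcl12 at chr6:117168535-117181368 was the one member with a log2 ratio below 0, dimmer in the node than in the cell line pool. Its log2 ratio was -1.09, -1.12 and -1.33 in TB_TNF_KO and -1.03, -0.62 and -0.88 in B_TNF_KO, without overlap. Sample intensity was 1491, 1243 and 1511 in TB_TNF_KO and 2203, 2469 and 2923 in B_TNF_KO. The difference was -0.37 (SE 0.13, 95% interval -0.69 to -0.056), which did not pass the test (limma adjusted p = 0.240). Unlike for Ccr7, the sample channel alone gave a similar value, -0.38, and the reference channel -0.0068. Over 21 alternatives Cxcl12 lay between -0.49 and -0.26 and was called in none.

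Cxcr4 at chr1:128588199-128592299, the receptor for Cxcl12, had log2 ratios of 2.27, 2.35 and 2.35 in TB_TNF_KO and 2.07, 2.20 and 2.44 in B_TNF_KO. The TB_TNF_KO values lay within the B_TNF_KO range. The difference was 0.091 (SE 0.105, 95% interval -0.17 to 0.35, limma adjusted p = 0.746), and it was -0.15 with the sample channel alone.

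**Figure D4:**
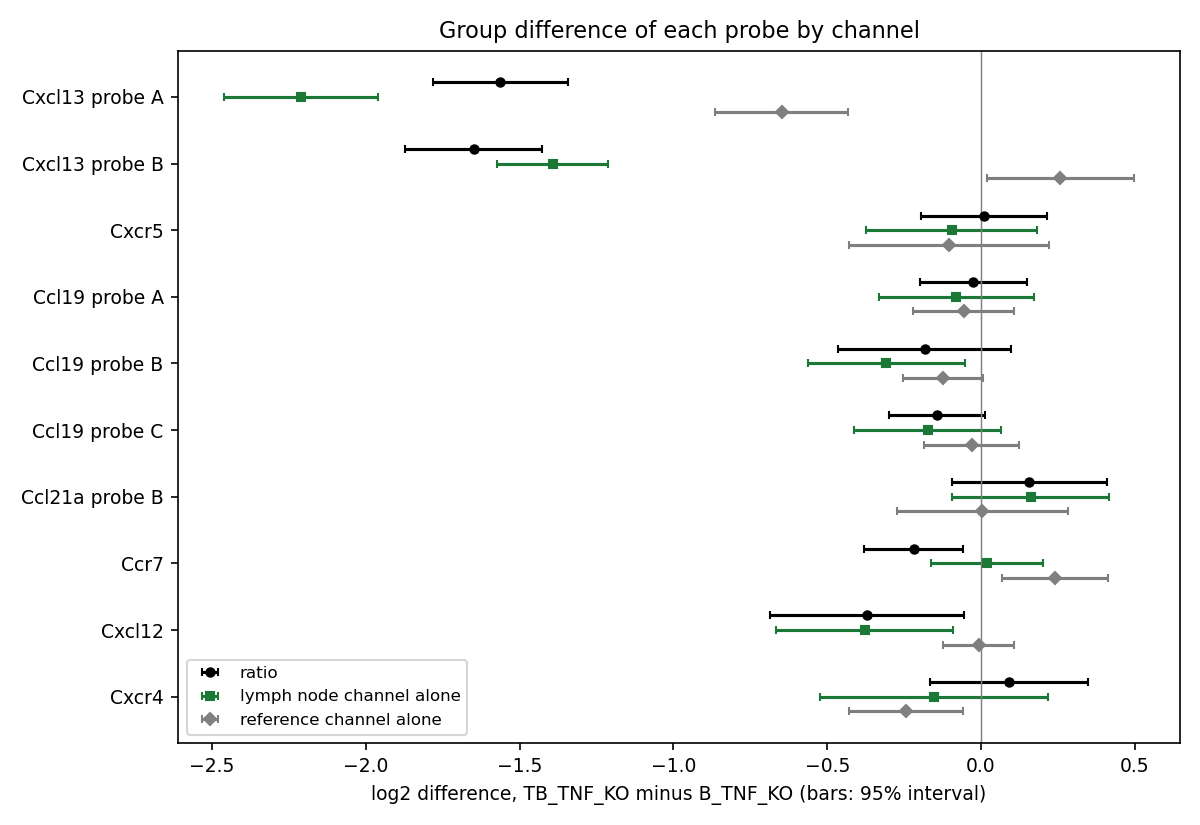
Log2 difference, TB_TNF_KO minus B_TNF_KO, of each unsaturated member probe for the ratio (black), the lymph node channel alone (green) and the reference channel alone (grey), with 95% intervals. The Cxcl13 probes lie near -1.6 in ratio, while the other 8 ratio differences lie between -0.37 and 0.16.

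Across the 10 unsaturated probes, 7 ratio differences were negative and 3 positive, with a median of -0.16, against -0.011 over all probes. Limma called 2 lower, both of Cxcl13, where 0.0147% of all probes were called lower, and 0 higher, where 0% were. At an unadjusted p under 0.05, 4 were lower (11.2% of all probes) and 0 higher (5.02% of all, 2047 probes). The ratio groups did not overlap with TB_TNF_KO lower at 5 of 10, against 17% of all probes, and with TB_TNF_KO higher at 0, against 10.6%. Sample intensities did not overlap with TB_TNF_KO lower at 8 of 10, where the share of all probes was 35.4%. Apart from Cxcl13, the ligands and receptors with an unsaturated probe showed no change that passed the test.

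The other chemokines and receptors of homeostatic traffic were measured for 15 of 17 listed genes, with 11 lower and 4 higher values and 0 calls by limma. At an unadjusted p under 0.05, 6 were lower and 0 higher, where the shares of all genes with a symbol were 16.5% and 4.49%. Ackr4, the scavenger of Ccl19 and Ccl21 on lymphatic endothelium, gave -0.58 (limma adjusted p = 0.0668). Ccr6, the receptor for Ccl20, gave -0.30 (adjusted p = 0.127), and Cxcl16, the ligand of Cxcr6, gave -0.17 (adjusted p = 0.135). The sample channel alone gave -0.53 for Ackr4, -0.084 for Ccr6 and -0.28 for Cxcl16, and the reference channel 0.058, 0.22 and -0.11. The median difference of the list was -0.13, against -0.026 over all genes with a symbol.

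The list of lipid guidance genes, most of which make or sense oxysterols and sphingosine phosphate, had 9 of 12 measured. Limma called 1 of them lower, where 0.0245% of all genes with a symbol were called lower. This was Lyve1, which is a hyaluronan receptor of lymphatic endothelium and no oxysterol or sphingosine gene, and which also stands in the lymphatic list. Its difference was -1.22 (limma adjusted p = 0.0094), with -0.57 in the sample channel alone and 0.65 in the reference channel. Sphk2, a sphingosine kinase, gave -0.28 (adjusted p = 0.0668), and S1pr1, the receptor lymphocytes use to leave the node, gave -0.36 (adjusted p = 0.197). Apart from Lyve1 no gene of this list was called. The list held 7 lower and 2 higher values with a median of -0.12. At an unadjusted p under 0.05, 4 were lower and 2 higher, against 16.5% and 4.49% of all genes with a symbol, and the higher ones were Klf2 (0.16), a transcription factor that maintains S1pr1, and Sphk1 (0.15), a sphingosine kinase, named after their values were seen.

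Genes of the TNF, lymphotoxin and NF-kB pathway upstream of these chemokines were measured for 17 of 18, and limma called 0 of them. At an unadjusted p under 0.05, 5 were lower and 1 higher, where the shares of all genes with a symbol were 16.5% and 4.49%, and the median was -0.082. Tnf gave -1.09 (limma adjusted p = 0.0550) at its brighter probe and -0.26 (adjusted p = 0.0995) at its second probe. Birc2, a ubiquitin ligase of this pathway, gave -0.39 (adjusted p = 0.0808), and Relb, a partner in the NF-kB pair named above, gave -0.23 (adjusted p = 0.145). Among signalling genes of chemokine receptors, 20 of 27 were measured, with 7 lower and 0 higher at an unadjusted p under 0.05 (16.5% and 4.49% of all genes with a symbol) and 0 calls. Rgs2, which shortens G protein signals, gave -0.40, Arrb2, a beta-arrestin, gave -0.34, and Rap1a, a GTPase of integrin activation, gave -0.37, each with a limma adjusted p of 0.0550. Their list median was -0.0996.

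Markers of the cells that make or answer to Cxcl13 were set beside it. Genes listed for follicular dendritic cells, 10 of 12 measured, had 9 lower and 1 higher value and a median of -0.13, where 7429 of all 12235 genes with a symbol were lower. At an unadjusted p under 0.05, 4 were lower and 1 higher, against 16.5% and 4.49% of all genes with a symbol. Their median log2 ratio was 1.34, 1.18 and 1.25 on TB_TNF_KO arrays and 1.73, 1.67 and 1.61 on B_TNF_KO arrays, and their summed sample signal 16.42, 16.56 and 16.39 against 16.61, 16.64 and 16.60 in log2 units. Both measures were lower on every TB_TNF_KO array than on any B_TNF_KO array, with the near-identical arrays 1 and 2 counted separately. Of all probes, 17% had log2 ratios apart in this direction, and no share was computed for list medians or sums. Array medians can fall on different genes, so their gap is not a per-gene difference. Both measures were also apart for reticular cells of the T zone. Their median ratios were 0.094 to 0.228 in TB_TNF_KO and 0.234 to 0.468 in B_TNF_KO, with summed signals of 15.17 to 15.22 and 15.25 to 15.38. The same held for lymphatic endothelium, with median ratios of 0.97 to 1.03 in TB_TNF_KO and 1.12 to 1.32 in B_TNF_KO. Its summed signals were 13.09 to 13.24 and 13.43 to 13.62. In dendritic cells and blood endothelium the median ratios alone were apart, while the summed signals overlapped. These ratios were 0.75 to 1.20 in TB_TNF_KO and 1.53 to 1.58 in B_TNF_KO for dendritic cells. For blood endothelium they were 1.29 to 1.51 and 1.55 to 1.69. Summed signals alone were apart for the other chemokines and receptors, at 13.87 to 14.01 in TB_TNF_KO and 14.05 to 14.18 in B_TNF_KO. They were also apart for the TNF, lymphotoxin and NF-kB pathway (16.18 to 16.26 and 16.29 to 16.42). For chemokine receptor signalling they were 16.68 to 16.78 and 16.81 to 16.84. Of the genes listed for follicular dendritic cells, Tnfsf11, the cytokine RANKL, gave -0.37, Bst1, a surface enzyme, -0.40 and Cilp, an extracellular matrix protein, -0.84. The sample channel alone gave -0.19, -0.57 and -1.03 for them, and the reference channel 0.18, -0.17 and -0.19. Limma adjusted p-values of their ratio differences were 0.0550, 0.0572 and 0.0608, the smallest of that list. Its brightest genes, Mfge8, C4b and Clu, gave -0.12, -0.12 and -0.14 (limma adjusted p = 0.693, 0.313 and 0.561). Lrat, its 1 higher gene, gave 0.21 (adjusted p = 0.224). The last 4 genes were named after their values were seen. The share of Cxcl13's decrease that goes with these markers was not tested. B cell markers, 9 of 10 measured, had 6 lower and 3 higher values and a median of -0.077. At an unadjusted p under 0.05, 3 were lower and 0 higher (16.5% and 4.49% of all genes with a symbol). The B cell median log2 ratio was 2.17, 2.10 and 2.44 in TB_TNF_KO and 2.76, 2.83 and 2.79 in B_TNF_KO, also apart. The summed B cell signal overlapped, at 15.48 to 15.78 in TB_TNF_KO and 15.67 to 15.71 in B_TNF_KO. Blk, a kinase of the B cell receptor, gave -0.51 (limma adjusted p = 0.0736), Cd79a, a chain of that receptor, -0.42 (adjusted p = 0.0746) and Fcrl1 -0.38 (adjusted p = 0.0968). The 3 higher genes, Cd79b, Ms4a1 and Cd22, were the brightest of the B cell list. They gave 0.052, 0.031 and 0.12 (limma adjusted p = 0.736, 0.918 and 0.380) and were named after their values were seen.

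Markers of T cells, which carry Ccr7, were measured for 11 of 12, with 9 lower and 2 higher values and a median of -0.073. At an unadjusted p under 0.05, 1 was lower and 0 higher, where the shares of all genes with a symbol were 16.5% and 4.49%. Lck, the kinase of the T cell receptor, gave -0.22 (limma adjusted p = 0.261), with -0.066 in the sample channel alone and 0.16 in the reference channel. Reticular cells of the T zone had 8 lower and 2 higher values in 10 of 12 measured, with a median of -0.13. Of these, 4 were lower and 0 higher at an unadjusted p under 0.05 (16.5% and 4.49% of all genes with a symbol). Il7, a survival factor for T cells, gave -0.40 (limma adjusted p = 0.0619). Dendritic cell markers, 9 of 12 measured, had a median of -0.15, with 7 lower and 2 higher values. At an unadjusted p under 0.05, 4 were lower and 0 higher (16.5% and 4.49% of all genes with a symbol). Fscn1, an actin bundler of mature dendritic cells, gave -0.41 (limma adjusted p = 0.0550), Ccl22, a chemokine acting on Ccr4, -0.68 (adjusted p = 0.0887) and Clec10a, a lectin, -0.61 (adjusted p = 0.0996). The sample channel alone gave -0.16, -1.03 and -0.41 for them, and the reference channel 0.25, -0.35 and 0.20. Lymphatic endothelial markers, 8 of 10 measured, were lower in all 8, with a median of -0.26, and 5 were lower at an unadjusted p under 0.05 (16.5% of all genes with a symbol). Limma called 1 of these, Lyve1 (0.0245% of all genes with a symbol were called lower), and Nr2f2, a transcription factor of veins and lymphatics, gave -0.55 (adjusted p = 0.0550). Blood endothelium and high endothelial venules, 9 of 10 measured, had 7 lower and 2 higher values and a median of -0.12. Of these, 3 were lower and 0 higher at an unadjusted p under 0.05 (16.5% and 4.49% of all genes with a symbol). Robo4, an endothelial receptor, gave -0.38 (limma adjusted p = 0.0608). Adipocyte markers, 9 of 10 measured, had a median of -0.060 and pancreas markers one of -0.22, each with 0 genes past an unadjusted p under 0.05 and 0 limma calls. No list held a gene called higher.

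**Figure D5:**
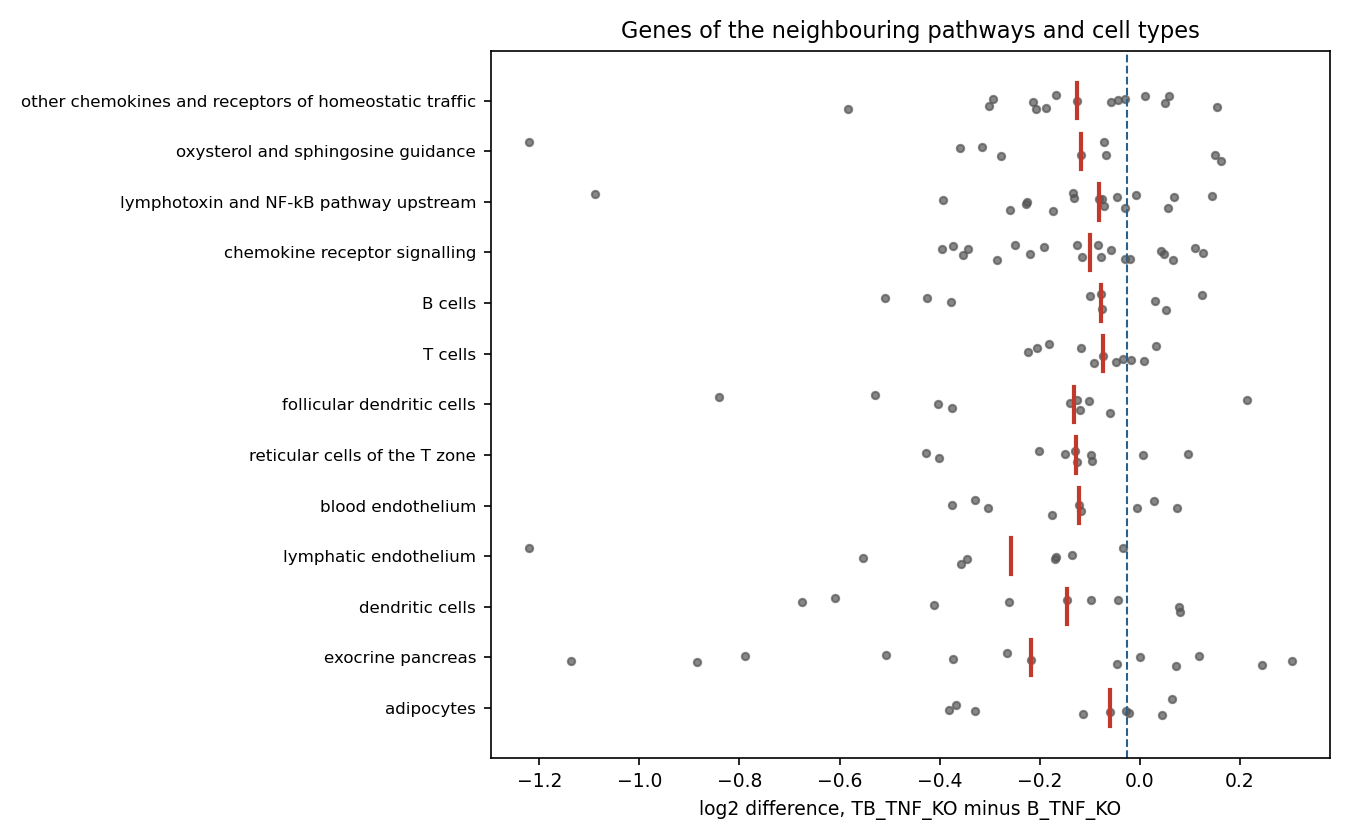
Log2 difference, TB_TNF_KO minus B_TNF_KO, of each gene (grey points) in lists of neighbouring pathways and cell types, with list medians as red bars and the median of all genes with a symbol as a dashed line. List medians lie between -0.26 (lymphatic endothelium) and -0.060 (adipocytes), all below the line at -0.026.

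The probes whose ratios ran most like the brightest unsaturated probe of each member except Ccl21b, which had none, over the 5 samples of the fit were taken from 1017 probes with a range of at least 0.5 (log2). With 5 points that share arrays and a reference, these are descriptions only. For Cxcl13 probe A they were Pygl (r = 0.999), Ear1 (0.997), Prg4 (0.991), Il18 (0.991) and Nr2f2 (0.990), of which Prg4, the lubricin gene, was itself called lower at -0.71 (limma adjusted p = 0.0273). For Ccl19 probe A they were Reg2, Pnliprp1, Amy1, Cela3b and Prss3 (r between 0.986 and 0.991), most of them genes of the exocrine pancreas. Those genes varied mainly between replicate 3 and the other pools. For Cxcr5 they were Ifi44l, Hddc3, Ifi44, Marco and Med1 (0.881 to 0.998). For Ccl21a probe B they were Med1, Rps7, Tmsb4x, Rps18 and Ubb (0.976 to 0.995). Ccr7 and Cxcl12 had Ltc4s, Cfb and Cd209d in common among their 5, with Cldn5 and Gucy1a1 for Ccr7 and Furin and H1f2 for Cxcl12. For Cxcr4 they were Rsrp1, D130040H23Rik, Khdrbs3, Syt7 and Il17b (0.886 to 0.989).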

How the data were processed

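Images were read by the authors with Agilent Feature Extraction A.7.5.1, per the file headers. For each spot the deposited arrays hold intensity and local background in both channels and a log10 value of Cy5 over Cy3. In the series table, differences of the deposited log10 values between arrays equalled log-ratio differences within 0.001 in 93.6% of cases (1.42% for the processed sample signal). Its column medians were 2.98 to 2.99, and its centring is unknown. Sample (Cy3) over reference (Cy5) follows the labels.

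Mean intensities were corrected with normexp (offset 50) and loess in limma 3.58.1 (R 4.3.3), with control spots at weight 0 and 228 outlier spots left out. Own values are log2, not the deposited log10. Probes well above background on at least 3 arrays were kept, 40792 of 41006, and each was tested with lmFit and eBayes at an adjusted p under 0.05. Channels alone used loess and Aquantile. Lists took the brightest probe per gene, without probes saturated on every array. Between 95.9% and 99.6% of an array's spots were well above background in Cy3. Precision is limited by the number of arrays. Of 41034 spots, 15303 got a symbol through RefSeq (GRCm38.p6), and coordinates are RefSeq's.

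The members, lists and tests were chosen with earlier results of these data known. Named were every member probe, up to 3 genes per list by smallest unadjusted p, and the 5 nearest patterns per member with an unsaturated probe. Further list genes are marked as named after their values were seen. Replicate numbers came from the labels. Deviations of same-numbered samples from their group means correlated at 0.134, 0.525 and 0.621. TB_TNF_KO replicate 1 correlated more with B_TNF_KO replicate 2 (0.426) than with B_TNF_KO replicate 1, so the numbers are not shown to be pairs. The main fit used no pairs, and the block was run as an alternative. On simulated data for this comparison (40584 probes), 100 of 100 changes of size 1 and 84 of 100 of size 0.5 (log2) were found, with 18 false calls. The median SD there was 0.062, and planted changes ease the adjusted threshold. On the real arrays Tnf at -1.09 was not called (limma adjusted p = 0.0550). These shares therefore need not hold for the members, and an uncalled member is not shown to be unchanged. Alternatives covered background, scaling, channel, source of values, filter, probe choice, weights, spread model, saturation, base composition, the block and samples left out. Figures used matplotlib 3.10.9 in Python 3.11.15.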

Additional observations from a re-analysis of the deposited data

How the results depend on the processing

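Cxcl13 was lower in TB_TNF_KO under each alternative run, between -2.21 and -1.29 at probe A (21 alternatives) and between -1.77 and -1.36 at probe B (20), and each probe was called in 13. The call was lost at both probes without background subtraction (limma adjusted p = 0.0597), with the deposited log ratio (0.127), with the authors' series table (0.126), without B_TNF_KO replicate 1 (0.0723) or 2 (0.0917), without TB_TNF_KO replicate 3 (0.168 and 0.136, differences -1.50 and -1.69), and with replicate 3 of both groups left out (0.365). The last pair of settings left TB_TNF_KO with 1 sample, assumed to vary like B_TNF_KO, which alone gave the spread. At probe A alone it was lost without TB_TNF_KO replicate 2 (0.0536). None of the other 8 unsaturated member probes was called in any alternative run, and the saturated Ccl21a probe A and Ccl21b were not run. Against 6 probes called lower and 0 higher, counts were 0 lower without background subtraction, 1 with the deposited log ratio, 0 with the series table and 0 without replicate 3 of both groups. They were 114 lower and 73 higher with the sample channel alone, 290 and 91 with array weights, and 411 and 151 with trend and robust eBayes. With the 6 arrays counted separately, which counts near-identical arrays as 2 samples, they were 1868 and 597, and 1732 and 558 with a correction for base composition. With the replicate block on the 6 arrays they were 2534 lower and 738 higher, and 2227 and 685 with block and base composition together. The block changed no call of a member. Median centring gave 2 higher and saturated spots without value gave 1 higher. Leaving out 1 replicate gave 0 to 5 lower. Signs turned only at differences never called. Cxcr5 gave -0.069 without background subtraction, -0.055 with median centring, -0.095 with the sample channel alone, -0.000373 with base composition (with and without the block), -0.055 without replicate 3 of both groups and -0.053 to 0.084 leaving out 1 replicate. Ccl19 probe A gave 0.00489 on 6 arrays (with and without the block), 0.025 without replicate 3 of both groups and -0.063 to 0.064 leaving out 1 replicate, and Ccl19 probe B 0.038 without replicate 3 of both groups. Ccl21a probe B gave -0.016 with median centring, Ccr7 0.020 with the sample channel alone, and Cxcr4 -0.026 without background subtraction and -0.15 with the sample channel alone. The causes were not tested.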
